A study of Physcomitrium patens with 4 samples.

Results

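A set of 115 genes was chosen in the moss Physcomitrium patens. In the pubs hy2 double mutant they had at least 2-fold fewer transcripts after 1 hour of red light than in the dark. Their measured wild-type fold was at least 0.8. For some members with few wild-type reads, counting error did not exclude a 2-fold reduction there. The set was drawn from 32273 genes in all. Each gene's reads, with 0.5 added, were divided by the reads of all genes in the library, and the red light value was divided by the dark value within each genotype. A member had a fold of at most 0.5 in pubs hy2, a fold of at least 0.8 and below 2 in wild type, at least 40 reads in the pubs hy2 dark library, and under 10% of reads mapping to several places in all 4 libraries. The red light folds of both genotypes therefore chose the members. Since the members were chosen by these folds, the folds are given as a description and were not tested.

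Phytochromes are the red and far-red light receptors of plants. They sense light through a linear tetrapyrrole, a bilin, which is bound to the protein and switches it between an inactive and an active form when red light is absorbed. PUBS and HY2 are enzymes that make such bilins, HY2 the phytochrome chromophore phytochromobilin and PUBS the related phycourobilin. In the filaments of moss protonema phytochromes are known for guiding branching and growth towards light.

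The groups were red light and dark samples of pubs hy2, and red light and dark samples of wild type, with 1 library in each group. The pubs hy2 strain carries mutations in both bilin synthase genes and is given by the labels as a phytochrome-deficient mutant, and all libraries were of ecotype Gransden2004. All were made from 10-day-old protonema, per the labels of the chloronema cell type, after 3 days of darkness. Red light had a wavelength of 660 nm and an intensity of 5 μmol m-2 s-1, the temperature was 25 °C, and each dark library was taken at time 0, so that red light and the passing of 1 hour cannot be told apart. The labels do not say whether the mutant is 1 clone or several.

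Reads on genes came to 15098951 to 24560047 per library, and 22414 to 23856 genes had a read. With 1 library per group there was no replicate check of any red light fold. Within each genotype the red light library was the deeper one, with 22975725 reads against 15098951 in pubs hy2 and 24560047 against 17560593 in wild type, so that equal reads mean a lower level after red light. The intervals below are exact 95% intervals that cover the counting error of reads only, and higher or lower refers to libraries. Of the identifiers in the files, 0 were found in the RefSeq gene table, so no member could be given a name or a function, and neither the mutated genes nor markers of chloronema could be checked. Fewer cells of a type and less RNA per cell cannot be told apart in such whole-tissue samples.

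Genes that met the requirements on reads and on multi-mapping numbered 16071 and are called eligible below. A pubs hy2 fold of 0.5 or less was found in 277 of them, 1.72% of eligible genes, and the members made up 0.716%. In 141 of the 277 genes the wild-type fold was below 0.8, and in 21 it was 2 or more. Not each of the 141 was shown to be lower after red light in wild type. Their wild-type dark reads went down to 0, where a fold below 0.8 comes from the added 0.5 and the library totals alone. With the genotypes exchanged, the same limits chose 540 of 16243 genes, which had a wild-type fold of 0.5 or less and a pubs hy2 fold of at least 0.8 and below 2. The opposite direction in pubs hy2, a fold of 2 or more with a wild-type fold above 0.5 and up to 1.25, was found for 99 eligible genes.

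Across the members the pubs hy2 fold ranged from 0.139 to 0.498, with a median of 0.436. It lay above 0.4 in 77 members, between 0.25 and 0.4 in 32 and at or below 0.25 in 6. The wild-type fold had a median of 1.05 and lay above 1 in 71 members and below 1 in 44. It was between 0.9 and 1.1 in 37 members and 1.5 or more in 15.

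The counting interval of the pubs hy2 fold lay wholly below 1 in all 115 members, against 28.6% of eligible genes. It lay wholly below 0.8 in 113 members (7.56% of eligible genes) and wholly below 0.5 in 23 (0.442% of eligible genes). These shares follow from the way the members were chosen. In wild type the interval held 1 in 89 members (36.3% of eligible genes). It lay above 1 in 23 members (27.4% of eligible genes) and below 1 in 3 (36.3% of eligible genes). These wild-type shares are not on equal terms, since the rule limits the wild-type fold and members had fewer wild-type reads. The 3 below 1 were Pp1s375_35V6, Pp1s310_2V6 and Pp1s175_105V6, named here after their values were seen. For them a reduction confined to the mutant holds only at the 2-fold size. The ratio of the folds, pubs hy2 over wild type, ranged from 0.108 to 0.584 with a median of 0.394, and its interval lay below 1 in 104 members (23.6% of eligible genes). When a coefficient of variation of 0.2 between biological samples was assumed for every library, it lay below 1 in 57 members (2.59% of eligible genes).

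**Figure D1:**
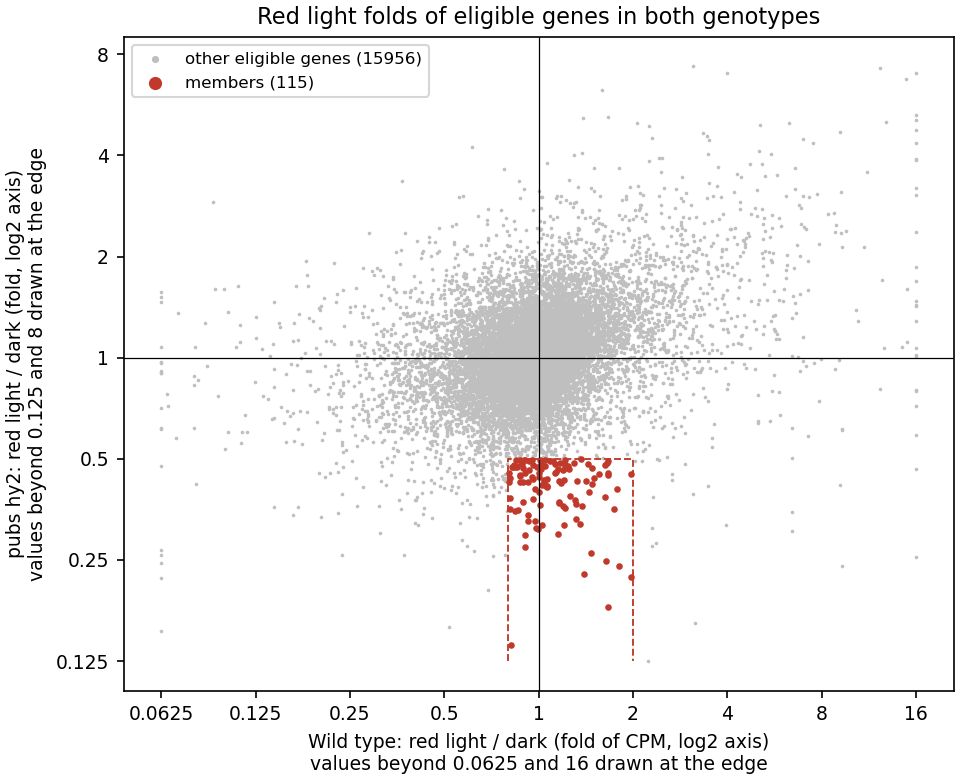
Each point is 1 eligible gene, with its red light over dark fold in wild type on the x axis and in pubs hy2 on the y axis, both on log2 axes. The 115 members (red) fill the dashed box of the rule, most of them just under its upper edge at 0.5, and the cloud of the other 15956 genes is centred near 1 in both genotypes.

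At least 200 reads in each library were found for 6 of the 115 members, and these are described first. The member with the most reads in the pubs hy2 libraries, Pp1s375_35V6 (2.28 kb), had 4086 reads in pubs hy2 after red light and 5903 in pubs hy2 in the dark, against 1878 in wild type after red light and 1482 in wild type in the dark. Per length and library size these were 69.3, 153, 29.3 and 32.9 RPKM in the same order. The mutant held more of this transcript than wild type under both conditions, and the gap was smaller after red light. Its fold was 0.455 (0.437 to 0.473) in pubs hy2 and 0.906 (0.846 to 0.971) in wild type.

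Pp1s41_278V6 (2.24 kb) behaved in the same manner, with 1411 reads in pubs hy2 after red light and 2096 in pubs hy2 in the dark, against 707 in wild type after red light and 531 in wild type in the dark. Its fold was 0.442 (0.413 to 0.474) in pubs hy2 and 0.952 (0.849 to 1.07) in wild type. The mutant was above wild type in both conditions, 2.13-fold after red light (1.95 to 2.34) and 4.59-fold in the dark (4.17 to 5.06).

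In 3 others of these abundant members the pubs hy2 red light level was within 2-fold of that of wild type. Pp1s310_2V6 had 2053 reads in pubs hy2 after red light, 2853 in pubs hy2 in the dark and, for wild type, 2633 after red light and 2297 in the dark. Its fold was 0.473 (0.447 to 0.501) in pubs hy2 and 0.820 (0.775 to 0.867) in wild type, so that red light libraries of both genotypes were the lower ones. Pp1s3_387V6, a gene of only 0.207 kb, had 627, 829, 633 and 474 reads in the same order and a pubs hy2 fold of 0.497 (0.447 to 0.552). After red light its level in pubs hy2 was 1.06-fold that of wild type (0.947 to 1.18), an interval that holds 1, against 2.03-fold in the dark (1.81 to 2.28). Pp1s32_194V6 had 267, 464, 327 and 243 reads and a pubs hy2 fold of 0.378 (0.324 to 0.441). Its pubs hy2 level was 0.873-fold that of wild type after red light (0.740 to 1.03) and 2.22-fold in the dark (1.90 to 2.60).

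The last of the 6, Pp1s215_86V6, started from nearly equal levels and separated. It had 391 reads in pubs hy2 after red light, 550 in pubs hy2 in the dark, 889 in wild type after red light and 550 in wild type in the dark. Its fold was 0.467 (0.409 to 0.533) in pubs hy2 and 1.16 (1.04 to 1.29) in wild type, with intervals on opposite sides of 1. After red light pubs hy2 stood at 0.470-fold of wild type (0.416 to 0.530), against 1.16-fold in the dark (1.03 to 1.31).

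Another group of named members had the lowest upper bounds of the pubs hy2 interval. The lowest fold of all belonged to Pp1s72_21V6 (0.240 kb), with 10 reads in pubs hy2 after red light and 49 in pubs hy2 in the dark, against 49 in wild type after red light and 43 in wild type in the dark. Only the pubs hy2 red light library stood apart, at a fold of 0.139 (0.0606 to 0.268). Pp1s125_50V6 (1.29 kb) had the best balanced wild-type values among the more abundant members. It had 123 reads in pubs hy2 after red light and 262 in pubs hy2 in the dark, against 341 in wild type after red light and 245 in wild type in the dark. The folds were 0.309 (0.247 to 0.384) in pubs hy2 and 0.995 (0.842 to 1.18) in wild type. Pp1s488_10V6, with 162, 226, 295 and 213 reads in the same order, was nearly as level in wild type at 0.990 (0.827 to 1.19) and had a pubs hy2 fold of 0.471 (0.383 to 0.579).

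Pp1s98_22V6 (1.27 kb) was nearly absent from wild type, with 105 reads in pubs hy2 after red light and 311 in pubs hy2 in the dark, against 23 in wild type after red light and 8 in wild type in the dark. Its fold was 0.223 (0.176 to 0.278) in pubs hy2 and 1.98 (0.888 to 5.32) in wild type. Pp1s39_411V6, with 33, 91, 26 and 10 reads in that order, and Pp1s40_22V6, with 12, 45, 17 and 7 reads, were alike in having few wild-type reads and a wild-type interval that reaches from below 1 to above 4. For these genes the wild-type band of the rule was met at a depth that could not tell a level value from a rise. Their pubs hy2 folds were 0.241 (0.155 to 0.358) and 0.181 (0.0844 to 0.337).

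Both light conditions were needed to see how Pp1s3_360V6, Pp1s235_113V6 and Pp1s304_6V6 differed between genotypes. They were the 3 members whose level in pubs hy2 exceeded that of wild type by 2-fold or more in the dark and fell short of it by 2-fold or more after red light. Pp1s3_360V6 had 29 reads in pubs hy2 after red light and 85 in pubs hy2 in the dark, against 94 in wild type after red light and 48 in wild type in the dark. The genotype fold was 0.334 (0.210 to 0.505) after red light and 2.05 (1.43 to 3.00) in the dark. Pp1s235_113V6 and Pp1s304_6V6 had genotype folds of 0.421 (0.230 to 0.717) and 0.417 (0.232 to 0.701) after red light, and of 2.79 (1.67 to 4.94) and 2.35 (1.44 to 4.00) in the dark. Such a crossing was found in 0.0809% of eligible genes.

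**Figure D2:**
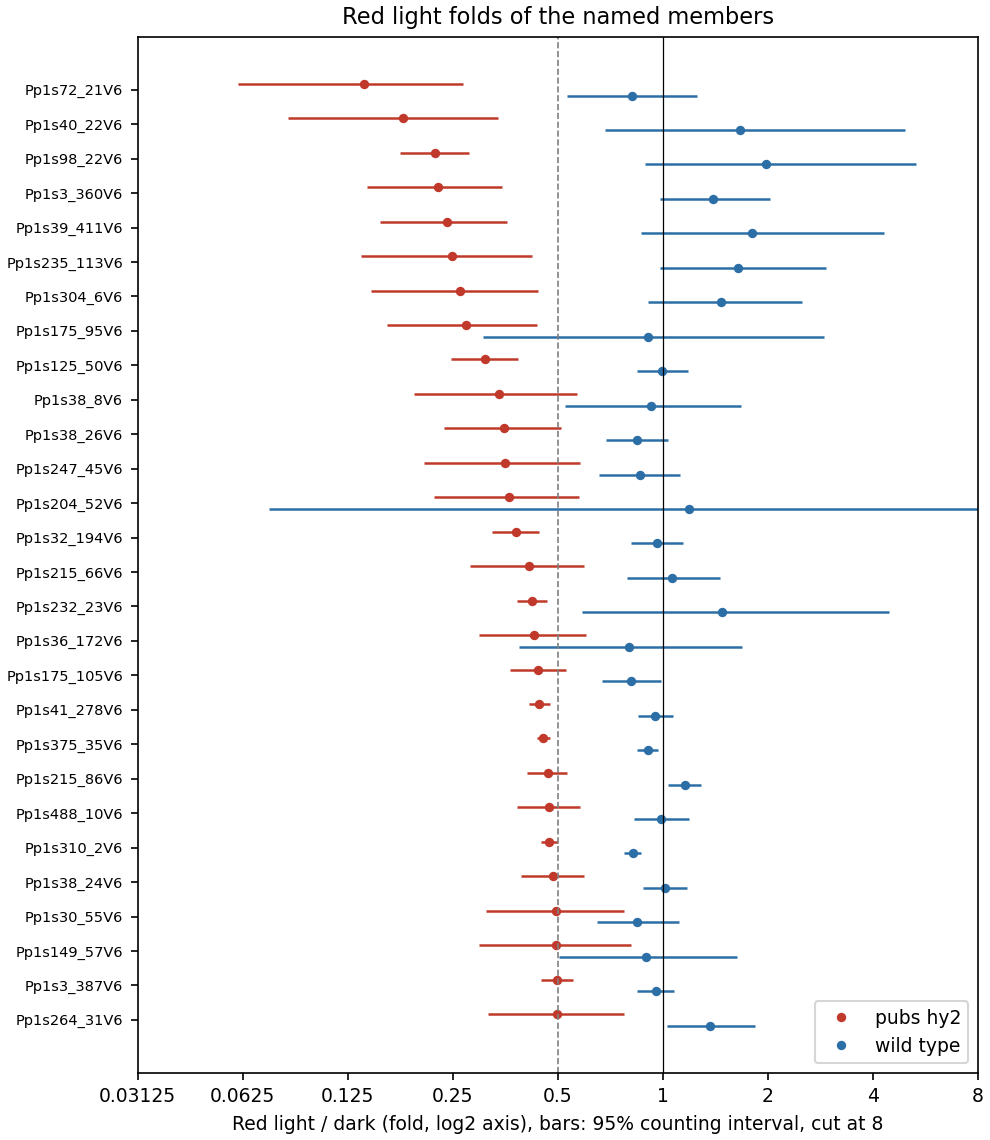
Red light over dark folds of the 28 named members on a log2 axis, pubs hy2 in red and wild type in blue, with 95% counting intervals as bars and the limit of 0.5 as a dashed line. The pubs hy2 bars of all 28 lie below 1, while most wild-type bars cross 1, and those of members with few wild-type reads, such as Pp1s204_52V6, are wide.

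The level of the members relative to wild type was not part of the rule, although it rests on the same libraries. A choice of genes with many reads in pubs hy2 dark and few in pubs hy2 red light raises the dark fold between genotypes and lowers the red light one. In the dark, 51 members were higher by 2-fold or more in pubs hy2 (12.6% of eligible genes) and 0 were lower by that much (10.2% of eligible genes). After red light, 20 members were higher by 2-fold or more in pubs hy2 (14.0% of eligible genes) and 50 were lower by that much (9.38% of eligible genes). The median fold of pubs hy2 over wild type was 0.574 after red light and 1.63 in the dark for the members. For the other eligible genes it was 0.942 after red light and 0.901 in the dark.

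The 51 members raised in the dark mutant had median levels of 2.00 CPM (reads scaled to a library total of 1000000) in pubs hy2 after red light and 5.56 in pubs hy2 in the dark, against 1.38 in wild type after red light and 1.31 in wild type in the dark. After red light their median level lay nearer to wild type. The rule lowers the fold of pubs hy2 over wild type from dark to red light in every member. The courses given here, of the 51 and of the other 64, therefore follow in part from the choice and are a description. Of the 51, 28 were within 2-fold of wild type after red light (2.65% of eligible genes took this course), 20 were still at least 2-fold higher (9.91%) and 3 were lower. The other 64 members differed by less than 2-fold in the dark, with median levels of 2.52 CPM in pubs hy2 after red light and 5.53 in pubs hy2 in the dark, against 6.84 in wild type after red light and 6.61 in wild type in the dark. After red light 47 of them were lower by 2-fold or more in pubs hy2 (4.87% of eligible genes) and 17 stayed within 2-fold (68.3%). That 0 were higher by 2-fold or more (4.01%) was fixed by the rule. It lets no member under 2-fold in the dark reach that level after red light.

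Summed over all members, the transcripts took 0.0731% of reads in pubs hy2 after red light and 0.167% in pubs hy2 in the dark, against 0.0870% in wild type after red light and 0.0846% in wild type in the dark. The pubs hy2 dark library held the highest level of the 4 in 79 members, and the pubs hy2 red light library held the lowest in 75. The rule favours both counts, and it fixes the first for the 51 members that were 2-fold or more higher in the dark mutant. The same shares were not computed over eligible genes, so both counts are a description only. Without Pp1s375_35V6, which had the most reads in the pubs hy2 libraries, the shares were 0.0553%, 0.128%, 0.0794% and 0.0761% in the same order.

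**Figure D3:**
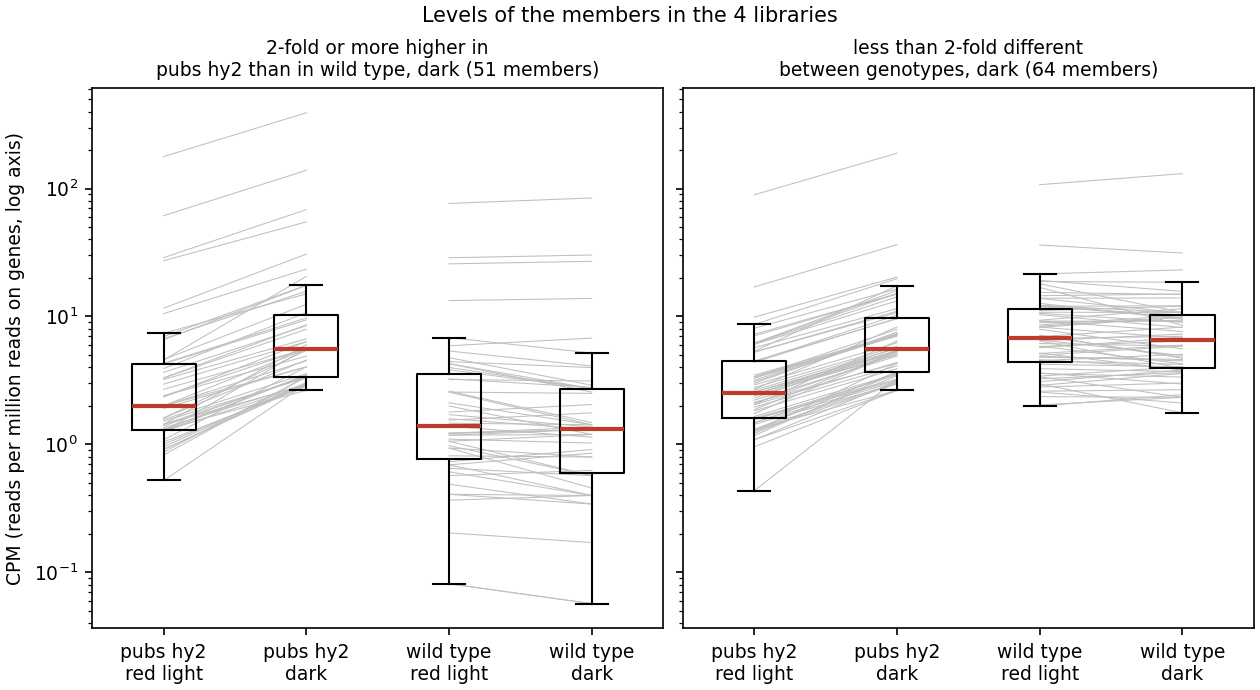
Levels of the members in CPM on a log axis, with 1 line per gene joining the libraries of a genotype and boxes giving median and quartiles (whiskers to 1.5 times the box). The 51 members on the left are highest in the pubs hy2 dark library, and the 64 on the right have like medians in 3 libraries, 5.53 to 6.84, and a lower one of 2.52 in pubs hy2 after red light. The rule and the split by dark fold fix the first pattern and favour the second.

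**Figure D4:**
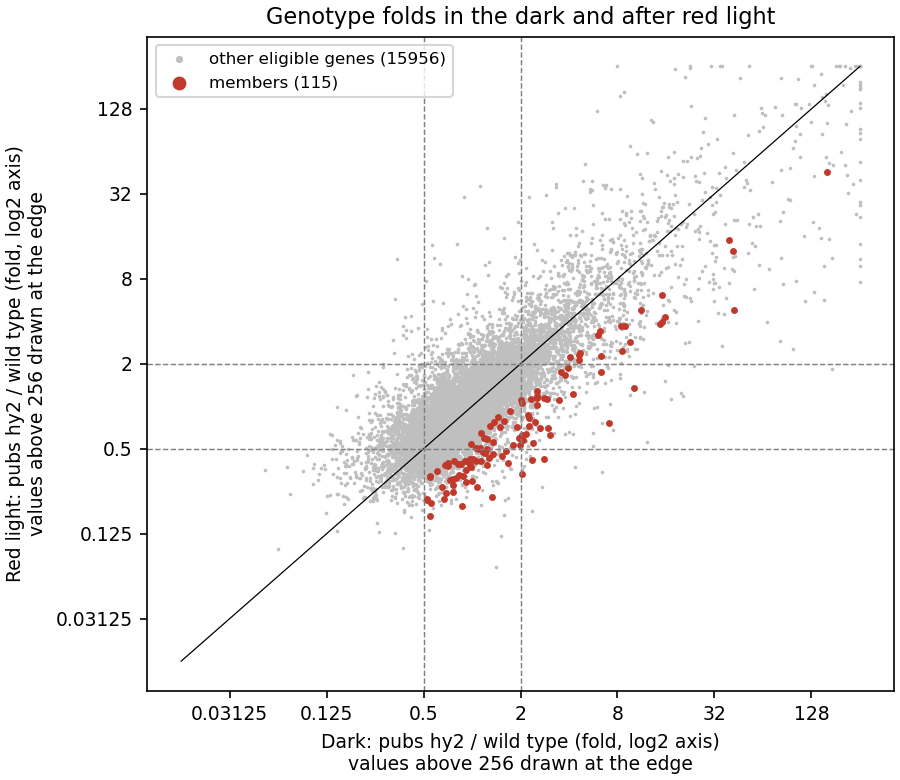
Fold of pubs hy2 over wild type after red light (y axis) against the same fold in the dark (x axis), both on log2 axes, for eligible genes. Every member (red) lies below the diagonal, as the rule fixes, and their dark folds spread from 0.524 to the 160.4 of Pp1s232_23V6.

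The members with the highest dark fold between genotypes were all but silent in wild type. Pp1s232_23V6 (2.34 kb) had 663 reads in pubs hy2 after red light and 1034 in pubs hy2 in the dark, against 15 in wild type after red light and 7 in wild type in the dark. Its genotype fold was 45.8 after red light (28.4 to 84.9) and 160.4 in the dark (83.1 to 428). Pp1s98_22V6, described above, had genotype folds of 4.80 after red light (3.09 to 8.03) and 42.6 in the dark (22.7 to 106). Pp1s204_52V6 had 29 reads in pubs hy2 after red light and 53 in pubs hy2 in the dark, against 2 in wild type after red light and 1 in wild type in the dark. Its dark fold of 41.5 has an interval from 10.6 to 2480.0 and gives little more than the direction. The wild-type fold of 1.19 had an interval from 0.0744 to 84.4, which also holds a 2-fold reduction. In all, 13 members had 10 or fewer reads in the wild-type dark library.

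At the other end, Pp1s247_45V6, Pp1s38_26V6 and Pp1s30_55V6 were lower in pubs hy2 already in the dark. Pp1s38_26V6 had 43 reads in pubs hy2 after red light and 81 in pubs hy2 in the dark, against 211 in wild type after red light and 179 in wild type in the dark. The genotype fold was 0.220 after red light (0.153 to 0.304) and 0.528 in the dark (upper bound 0.688). For Pp1s247_45V6 it was 0.215 after red light and 0.524 in the dark, and for Pp1s30_55V6 it was 0.319 and 0.545. Both wild-type libraries exceeded both mutant ones in these genes.

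A difference between genotypes that is shared by both light conditions could be tested, with 2 libraries on each side. In an additive fit of genotype and light over all 20409 genes that passed the filter on low counts, edgeR's quasi-likelihood test called 15 of the 115 members at an adjusted p under 0.05, all of them higher in pubs hy2. Over all genes tested 14.0% were called higher and 9.07% lower in pubs hy2, and 23.0% were called in all. The rule asked for reads in the pubs hy2 dark library only, so that members with few wild-type reads entered through the group where they were high, and neither the count nor its direction is a result about the members. Of the 61 members with at least 40 reads in all 4 libraries, 3 were called, all higher in pubs hy2, against 13.7% called higher and 10.5% called lower among the 15214 eligible genes with as many reads (a restriction chosen after seeing the data). At an unadjusted p under 0.05 it was 32 members, against 39.1% of all genes. A red light response that differs between the genotypes enters the error of this fit, and the members were chosen for such a response. The median log2 genotype difference was 0.10 for the members and -0.04 for all genes tested, and all 115 members passed the filter on low counts.

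The 15 called members had log2 differences from 1.74 to 6.48. The 3 with at least 40 reads in every library were Pp1s375_35V6 at 1.81 (edgeR, Benjamini-Hochberg adjusted p = 0.0128), Pp1s41_278V6 at 1.74 (adjusted p = 0.0155, edgeR) and Pp1s326_17V6 at 2.27 (adjusted p = 0.0293, edgeR). Pp1s326_17V6 was named after its values were seen. Pp1s232_23V6 had the largest difference of the 15, 6.48, and was higher in pubs hy2 in both light conditions. Among other named members Pp1s98_22V6 had 3.84, Pp1s204_52V6 had 4.86 and Pp1s36_172V6 had 2.26. No p is given for these 4, which had fewer than 40 reads in at least 1 wild-type library. No member called was one of the 64 with less than 2-fold difference in the dark, whose log2 differences ran from -1.63 to 0.43. The class limit and the rule left little room for a call as higher among these 64, so this is a description.

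The limits of the rule separated genes with close values. Pp1s264_31V6 had the highest pubs hy2 fold among members, 0.498, and Pp1s6_349V6, with 175 reads in pubs hy2 after red light and 230 in pubs hy2 in the dark, exceeded the limit in the fourth decimal and was left out. Pp1s36_172V6 had the lowest wild-type fold, 0.802, and Pp1s373_25V6, with 0.797, was left out. Pp1s98_22V6 had the highest wild-type fold, 1.98, and Pp1s185_98V6, with 2.02, was left out. Pp1s149_57V6 entered with 40 reads in the pubs hy2 dark library, and Pp1s1_351V6, with 39 reads and a pubs hy2 fold of 0.175 (0.0750 to 0.344), did not.

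Most members were weakly expressed. Their median was 55 reads in pubs hy2 after red light and 84 in pubs hy2 in the dark, against 105 in wild type after red light and 67 in wild type in the dark. For the other eligible genes the medians were 582, 369, 663 and 477 in the same order. Per length the members' medians were 2.27, 5.61, 3.32 and 3.27 RPKM, and those of the other eligible genes 12.4, 12.1, 12.6 and 13.0 RPKM. Members made up 3.14% of the 1626 eligible genes with 40 to under 80 pubs hy2 dark reads. This share was 1.24% of 3319 genes with 80 to under 200 reads, 0.356% of 4781 genes with 200 to under 500 reads, and 0.0946% of 6345 genes with 500 or more. Only 23 members had at least 100 reads in all 4 libraries. The part of low counts in choosing the others was not tested.

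Gene length, which the rule does not use, differed between members and the other eligible genes. The median length was 1.25 kb for members and 1.84 kb for the others. Of the 249 eligible genes of up to 0.3 kb, 20 were members, or 8.03%, against 0.390% of the 6915 genes above 2 kb. Among genes with 40 to 200 pubs hy2 dark reads, members made up 9.05% of 199 genes of up to 0.3 kb and 1.30% of 1465 genes above 2 kb. The part of read depth in this difference was not tested. The 20 short members were 0.072 to 0.264 kb long, with pubs hy2 folds of 0.139 to 0.498. Pp1s96_111V6 of 0.150 kb, picked here after its values were seen, had 142 reads in pubs hy2 after red light and 229 in pubs hy2 in the dark, against 357 in wild type after red light and 263 in wild type in the dark.

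Short genes as a class, members included, had lower red light folds in pubs hy2. The 20 short members, chosen for a low fold, were not taken out, and the other short genes were not summarised apart. The median pubs hy2 fold of eligible genes of up to 0.3 kb was 0.795, against 0.998 for genes above 2 kb, while the wild-type medians were 0.966 and 0.952. Folds of 0.5 or less in pubs hy2 were found in 14.1% of the short genes and 1.07% of those above 2 kb, and folds of 2 or more in 2.81% and 2.46%. In wild type, folds of 0.5 or less and of 2 or more were equally frequent among the short genes, 12.0% each. When both folds were divided by the median of the gene's length class, a setting chosen after seeing the data, 104 genes met the rule, and 96 of them were among the 115.

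**Figure D5:**
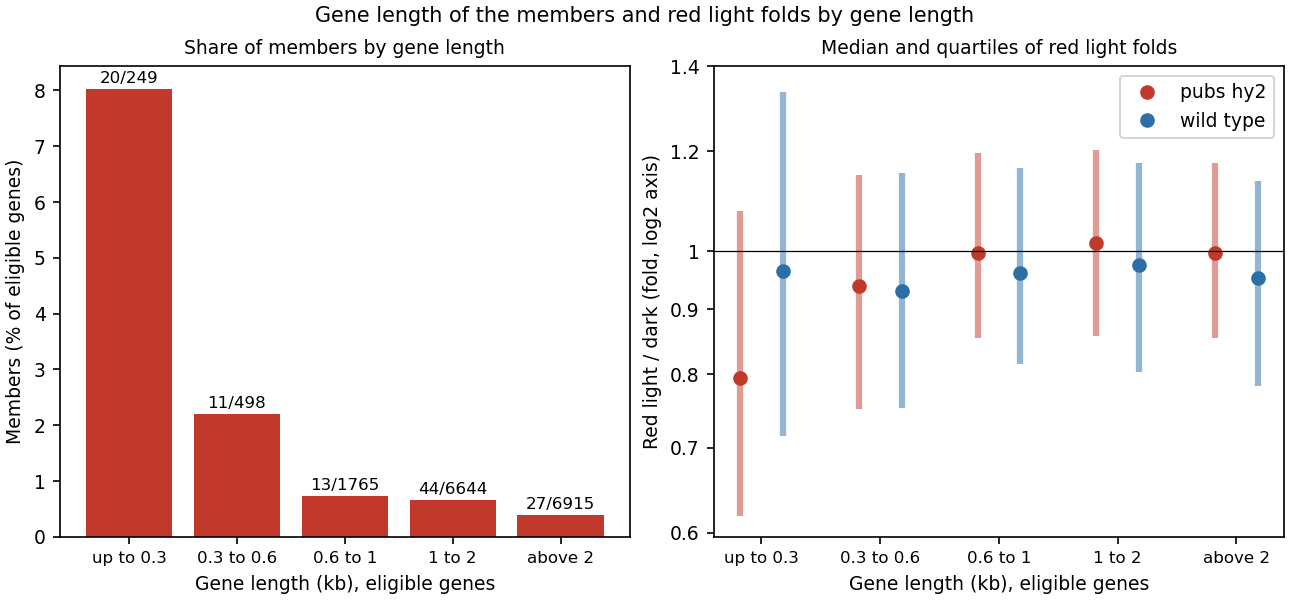
Left, share of eligible genes of each length class that are members, in percent, with members over genes above each bar. Right, median (points) and quartiles (bars) of the red light over dark fold on a log2 axis, pubs hy2 in red and wild type in blue. The share falls from 8.03% in the shortest class to 0.390% in the longest, and the shortest class has a pubs hy2 median of 0.795.

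The identifiers give a scaffold number and a gene number along it, from which neighbours could be read. The 115 members lay on 92 of the 539 scaffolds that held an eligible gene. Of these scaffolds, 18 held 2 or more members, at most 4. There were 2 pairs of members within 10 gene numbers of each other, and no pair was directly adjacent. Whether members lie closer together than other eligible genes was not tested. Pp1s38_24V6 and Pp1s38_26V6 were the closest. Pp1s38_24V6 (4.02 kb) had 167 reads in pubs hy2 after red light and 227 in pubs hy2 in the dark, against 461 in wild type after red light and 325 in wild type in the dark. Its folds were 0.484 (0.394 to 0.593) in pubs hy2 and 1.01 (0.878 to 1.17) in wild type. The gene between the pair, Pp1s38_25V6, had 62 reads in pubs hy2 after red light and 38 in pubs hy2 in the dark, a fold of 1.07, so that the reduction did not run through all 3 neighbours. The other pair, Pp1s175_95V6 and Pp1s175_105V6, had pubs hy2 folds of 0.272 (0.162 to 0.435) and 0.440 (0.365 to 0.527). Between them the eligible gene Pp1s175_96V6 had a pubs hy2 fold of 0.363 and a wild-type fold of 0.310, and was thus lower after red light in both genotypes. The eligible gene Pp1s175_102V6 had 0.620 in pubs hy2 and 0.608 in wild type, and the eligible gene Pp1s175_104V6 had 0.753 in pubs hy2 and 1.00 in wild type. Pp1s175_101V6, not eligible with 28 reads in the pubs hy2 dark library, had 1.76 in pubs hy2 and 0.715 in wild type, and Pp1s175_97V6 had 0 reads in every library. Somewhat farther apart on their scaffolds were Pp1s38_8V6, which had 23 reads in pubs hy2 after red light and 45 in pubs hy2 in the dark, against 30 in wild type after red light and 23 in wild type in the dark, and Pp1s215_66V6, 20 gene numbers from Pp1s215_86V6. The pubs hy2 fold was 0.339 (0.194 to 0.567) for Pp1s38_8V6 and 0.413 (0.280 to 0.595) for Pp1s215_66V6. Reads were not stated to keep their strand, so overlapping neighbours on opposite strands could not be separated.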

How the data were processed

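Messenger RNA was sequenced in 4 libraries of Physcomitrium patens protonema, 1 per group. The authors deposited, per the file headers, an estimated count of reads per gene (95.4% to 95.6% of values whole), an RPKM value, the fraction of each gene's reads with several mapping places, and a gene length in kilobases. The reads summed over genes were 10.5% to 12.6% below the total that the deposited RPKM values imply. Aligner, genome build and annotation are not given in the sources used here. RNA selected by its poly-A tail was fragmented, copied by random priming, size-selected and amplified by PCR, per the labels' protocols. PCR copies were not marked, so intervals cover counting error of reads only.

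Folds were computed from reads plus 0.5 over library totals. Their 95% intervals are exact Clopper-Pearson intervals on rounded reads without the added constant, and the interval of a ratio of folds is on the log scale. CPM values are reads over the library total, times 1000000. Rounded estimated counts of all genes were fitted with genotype and light as terms in edgeR 4.0.16 (TMM factors, quasi-likelihood test, 1 residual degree of freedom, Benjamini-Hochberg adjustment over all genes tested). DESeq2 1.42.0, limma 3.58.1 on log2 RPKM, other scalings, read minimums and limits were alternatives. R 4.3.3 and Python 3.11.15 with scipy 1.17.1 were used. The choice of members by the rule and the additive edgeR fit were tested on simulated data. The labels do not say whether libraries came from separate cultures, so p-values cover only the spread among these 4 libraries, which may be technical.

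The members and the settings were chosen with earlier results of these data known. Genes named in the text are the members with the lowest upper bound of the pubs hy2 interval, the most pubs hy2 dark reads, the most extreme dark fold between genotypes, a value next to a limit of the rule, the closest positions on a scaffold, or a wild-type fold nearest 1 among members with at least 200 reads in each wild-type library. Exceptions are marked.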

Additional observations from a re-analysis of the deposited data

Results flagged for a closer look

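Of the 28 members named by the stated choices, 2 were lower after red light in pubs hy2 and higher in wild type. Both counting intervals were clear of 1. The same held for Pp1s326_17V6, which was named after its values were seen. No replicates exist, so this difference between genotypes was not tested. The ratio of the pubs hy2 fold to the wild-type fold was 0.405 (0.342 to 0.478) for Pp1s215_86V6, which had folds of 0.467 in pubs hy2 and 1.16 in wild type. It was 0.364 (0.219 to 0.604) for Pp1s264_31V6, which had folds of 0.498 (0.315 to 0.776) in pubs hy2 and 1.37 (1.03 to 1.84) in wild type and is 0.153 kb long. Over all members 23 showed this pattern. The pubs hy2 interval lay below 1 in all 115 members, so 23 is the count with a wild-type interval above 1. Such a wild-type interval was found in 27.4% of eligible genes, a larger share than among the members. The share of eligible genes with both intervals placed in this way was not computed. The rule chose on both folds, so the ratios of folds and the count are a description.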

How the results depend on the processing

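The number of members, 115, stayed within 1.5 times under other scalings (120 with TMM factors, of which 113 were among the 115, 136 with DESeq2 size factors and 118 with RPKM ratios), other added constants, other multi-mapping limits, and with genes of up to 0.3 kb left out (95). It moved to 187 with a minimum of 20 reads, to 46 with 100 reads, to 61 with 40 reads in all 4 libraries (chosen after seeing the data), to 38 with a pubs hy2 limit of 0.4 and to 75 with a wild-type band of 0.9 to below 1.5. These settings narrow or widen the rule by construction. The interval of the ratio of folds lay below 1 in 57 members with the assumed variation. Pairs of members on a scaffold were 1 within 5 gene numbers and 0 when directly adjacent. The genotype fit called 3 members when only those with 40 reads in all 4 libraries were counted (chosen after seeing the data), and 10 to 21 members under the other alternatives, 18 of them with DESeq2, and without a filter on low counts 2 of the 21 were lower in pubs hy2. With TMM factors 54 members were 2-fold or more higher in pubs hy2 in the dark and 47 were 2-fold or more lower after red light, and the pubs hy2 folds of the 32 named genes stayed within their counting intervals with TMM factors and with RPKM ratios. The median log2 dark fold between genotypes over eligible genes was -0.15 with library totals and -0.04 with TMM factors. No paired analysis was possible because each group has 1 library, and no library could be left out for the same reason. Depth limits the 54 members that had fewer than 40 reads in at least 1 library.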
